A study of Mus musculus with 21 samples.

Results

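The genes described here are 32 mouse genes of cholesterol and fatty acid synthesis and of its control. They were taken by gene symbol, from a list drawn up with earlier results of these data known. Of the 32 genes, 31 had a row among the 14178 genes of the inhibitor table, 31 among the 15623 genes of the knockdown table and all 32 among the 13949 genes of the overexpression table. Fads2 had no row in the inhibitor and knockdown tables. By role, 7 genes make isoprenoid precursors from acetyl-CoA (Acat2, Hmgcs1, Mvk, Pmvk, Mvd, Idi1 and Fdps) and 11 convert them to cholesterol (Fdft1, Sqle, Lss, Cyp51, Tm7sf2, Msmo1, Nsdhl, Hsd17b7, Ebp, Sc5d and Dhcr7). Another 6 control the pathway or carry sterols (Srebf1, Srebf2, Scap, Insig1, Insig2 and Stard4), and 8 make, lengthen or desaturate fatty acids (Acly, Acaca, Fasn, Elovl6, Scd1, Scd2, Fads1 and Fads2).

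RNA was sequenced from 21 libraries of cultured mouse acute myeloid leukaemia cells in 8 groups. All cells were established lines grown with stem cell factor, and the labels name no separate cultures, so the p-values measure the spread between libraries, which may be technical. In cells transformed by flag-tagged NUP98-NSD1, a fusion oncogene, 3 libraries each came from cells given DMSO (the vehicle), UNC1999 or JQEZ5, each labelled as 3 µM for 4 days. UNC1999 and JQEZ5 are inhibitors of PRC2, the complex whose catalytic subunit methylates lysine 27 of histone H3. From the same kind of NUP98-NSD1 cells, 3 libraries came after lentiviral infection with a hairpin against Kdm5b (shKdm5b) and 3 after infection with the empty vector (shEV), both selected with puromycin. Kdm5b is a demethylase of lysine 4 of histone H3. In cells transformed by MLL-AF9, another fusion oncogene, 2 libraries each carried an empty vector (EV), wild-type Kdm5b (WT) or Kdm5b with the H499A substitution (H499A).

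Depth is here the sum of read counts per library over the genes with a row, so reads outside these genes are not counted. It ran from 12812646 to 18928764 reads in the inhibitor table and from 21273211 to 34813867 in the knockdown table. In the overexpression table it ran from 17341257 to 19973218. Kdm5b counted 61.6, 94.8 and 67.0 normalised reads in shEV and 34.1, 28.8 and 23.2 in shKdm5b. These are low counts: only the shEV value of 94.8 lay above the 86.6 set by the filter on low values. Kdm5b therefore did not enter the main test in the knockdown table. Kdm5b counted 114 and 128 in EV, 1410 and 1416 in WT and 309 and 279 in H499A. The 2 forms were thus present at unequal levels, and a difference between them cannot be told apart from a difference of dose. The first shKdm5b library stood apart from the other shKdm5b libraries, with a chi-square of read counts divided by its degrees of freedom of 17.3 and 16.0 against them, where the others gave 6.41 between themselves. By the same measure the WT libraries gave 9.52, against 1.79 for EV and 1.53 for H499A, and UNC1999 libraries 1 and 3 gave 8.66. The groups of a table share an estimate of spread, so the looser WT libraries were pooled with tighter ones. Kdm5b also counted 595 to 624 in DMSO, 875 to 903 with UNC1999 and 649 to 666 with JQEZ5. The DMSO counts lay far above those of shEV, in tables that were normalised separately. All 8 markers of myeloid leukaemia cells had a row in each table, and none of the 4 B-cell or 4 T- and NK-cell markers did. Of 4 stromal and endothelial markers only Pecam1 had a row, and of 4 erythroid markers only Epor, in the overexpression table.

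Cells build cholesterol from acetyl-CoA through mevalonate, farnesyl diphosphate, squalene and lanosterol. The transcription factors SREBP1 and SREBP2, made from Srebf1 and Srebf2, switch on most of these genes when sterol is low: SCAP then escorts them from the endoplasmic reticulum for cleavage, while INSIG proteins hold SCAP back when sterol is high. SREBP1 is best known for the fatty acid genes and SREBP2 for the sterol genes, and Insig1 is itself an SREBP target. Growing blood and leukaemia cells use both products in membranes.

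Promoters in the RefSeq table (build GRCm38.p6) were found for 25 of the 32 genes, and Sqle, Fdps, Fdft1, Stard4, Scd1, Scd2 and Fads1 had none there. Those of Hmgcs1, Insig1 and Fasn are shown because the genes stand for the mevalonate, control and fatty acid branches that are followed below. Each line gives the 250 bases before the transcript start, 5′ to 3′ on the gene's strand. Capitals mark matches, on either strand, to a sterol regulatory element (TCACNCCAC), a CCAAT box (CCAAT, the NF-Y motif) or an E-box (CACGTG).
Hmgcs1: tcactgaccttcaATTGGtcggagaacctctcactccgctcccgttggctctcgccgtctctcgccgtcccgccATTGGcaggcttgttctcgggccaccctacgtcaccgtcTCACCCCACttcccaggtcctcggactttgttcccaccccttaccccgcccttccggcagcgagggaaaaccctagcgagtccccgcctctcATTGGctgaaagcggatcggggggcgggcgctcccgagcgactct
Insig1: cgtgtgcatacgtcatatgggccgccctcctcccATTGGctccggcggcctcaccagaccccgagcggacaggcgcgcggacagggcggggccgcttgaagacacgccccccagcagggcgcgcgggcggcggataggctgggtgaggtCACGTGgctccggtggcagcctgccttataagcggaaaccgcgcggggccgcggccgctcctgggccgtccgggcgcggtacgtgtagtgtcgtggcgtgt
Fasn: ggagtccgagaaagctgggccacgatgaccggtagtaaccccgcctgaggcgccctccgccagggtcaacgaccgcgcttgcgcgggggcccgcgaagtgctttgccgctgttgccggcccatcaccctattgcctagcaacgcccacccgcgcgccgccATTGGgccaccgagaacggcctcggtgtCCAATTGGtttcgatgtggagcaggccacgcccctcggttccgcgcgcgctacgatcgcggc
The Hmgcs1 stretch lies at chr13:119690101-119690350 on the plus strand, that of Insig1 at chr5:28071162-28071411 on the plus strand, and that of Fasn at chr11:120824548-120824797 on the minus strand. Hmgcs1 held 1 sterol regulatory element match and 3 CCAAT boxes, Insig1 held 1 CCAAT box and 1 E-box, and Fasn held 3 CCAAT boxes, a pair of which overlap.

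In the full 300-base windows (250 bases before and 50 after the start), a CCAAT box was present in 20 of the 25 genes, counted in 21 of their 33 promoters (63.6%), against 37.4% of all 32851 promoters in the table. An E-box was present in 5 of the 25 genes, counted in 6 of the 33 promoters (18.2%) against 7.15% of all, and the pair of Scap promoters overlap and hold the same match. The strict sterol regulatory element was found in Hmgcs1 only, against 1.24% of all promoters. Members and the whole table differ in base composition and were not matched for it, and a match is a run of letters in this window, with no test attached.

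Levels between genes are compared in reads per kb of exon per 1000000 reads, the mean over the libraries of a control group. The 3 tables were normalised separately by the authors. Scd2, a stearoyl-CoA desaturase, was highest in DMSO at 94.97 ± 2.16 (SD, n = 3) and in EV at 116 ± 1.83 (SD, n = 2). In shEV, Acly, which makes cytosolic acetyl-CoA from citrate, was highest at 40.3 ± 1.15 (SD, n = 3), followed by Fasn, the fatty acid synthase, at 28.1 ± 1.06. Scd2 reached 22.3 ± 1.34 there. Hence the gene at the top of the order was not the same in the 2 sets of NUP98-NSD1 control libraries. Scd1, a close paralogue of Scd2 with which reads may have been shared in quantification, was lowest in every control group, at 1.71 ± 0.0193 in DMSO, 0.354 ± 0.0216 in shEV and 0.905 ± 0.0634 in EV. In DMSO, Lss at 1.77 ± 0.124 lay within its own SD of both Scd1 and Tm7sf2, the latter at 1.81 ± 0.0551, so their order there is not resolved. Lengths join all annotated exons of a gene (10.79 kb for Lss, 4.89 kb for Scd1), and the ranks depend on them. Srebf2 stood above Srebf1 in all 3 control groups, at 17.6 ± 0.387 against 13.2 ± 0.335 in DMSO, 16.1 ± 0.303 against 9.86 ± 0.240 in shEV and 32.5 ± 0.912 against 25.8 ± 0.342 in EV. Insig2 exceeded Insig1 in DMSO (16.6 ± 0.498 against 10.1 ± 0.184), whereas Insig1 exceeded Insig2 in shEV (11.9 ± 0.413 against 6.96 ± 0.195) and in EV (27.7 ± 0.292 against 3.39 ± 0.165).

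**Figure D1:**
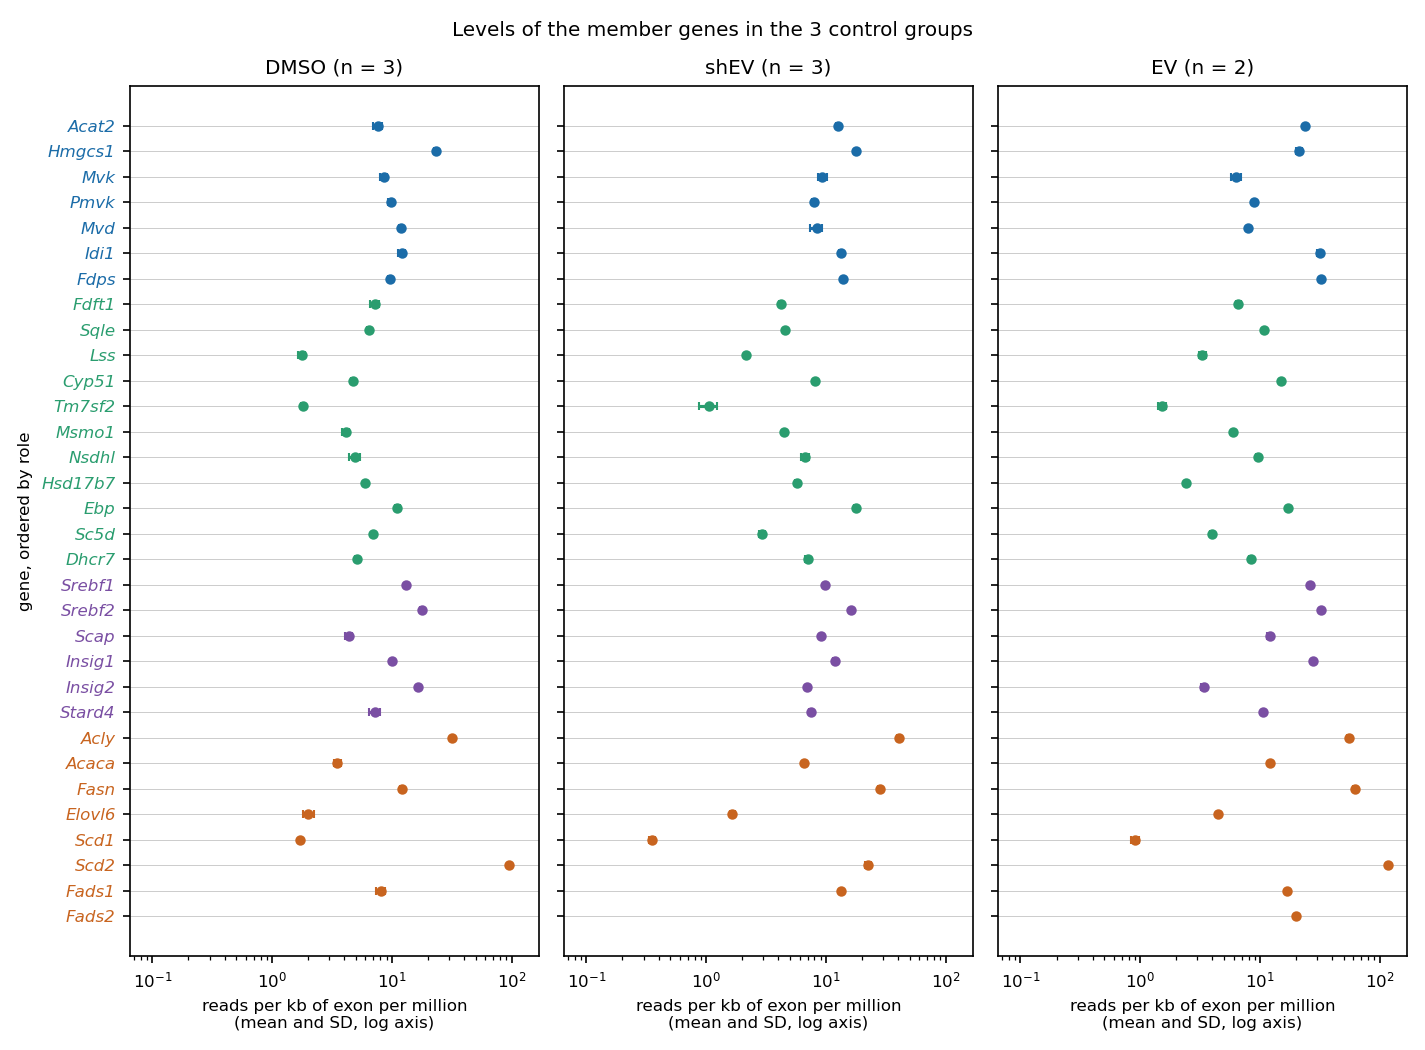
Level of each gene in the DMSO, shEV and EV control groups, in reads per kb of exon per 1000000 reads on a shared log axis, as mean (point) and SD (bar) over 3, 3 and 2 libraries, coloured by role. Scd2 is at the far right in DMSO (94.97) and EV (116), and Scd1 at the far left in each panel; Fads2 has a point only in EV.

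The following values are normalised read counts per library, obtained by undoing the authors' log2 transformation. Differences (log2) and their standard errors (SE) are on the deposited log2 scale, which understates changes, most at low counts but not only there. With WT against EV, for example, Fads2 went from a mean of 1223 to 297, a ratio of 0.243, with a log2 difference of -1.19. The lowest value of that scale was 6.88, 7.44 and 8.18 in the inhibitor, knockdown and overexpression tables. The understatement therefore differs between tables, and sizes of log2 differences are not comparable across them. Tests were by limma over all genes of a table, with Benjamini-Hochberg adjustment, and a gene was called at an adjusted p under 0.05. A bulk RNA value does not tell fewer cells of a type from less RNA per cell.

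**Figure D2:**
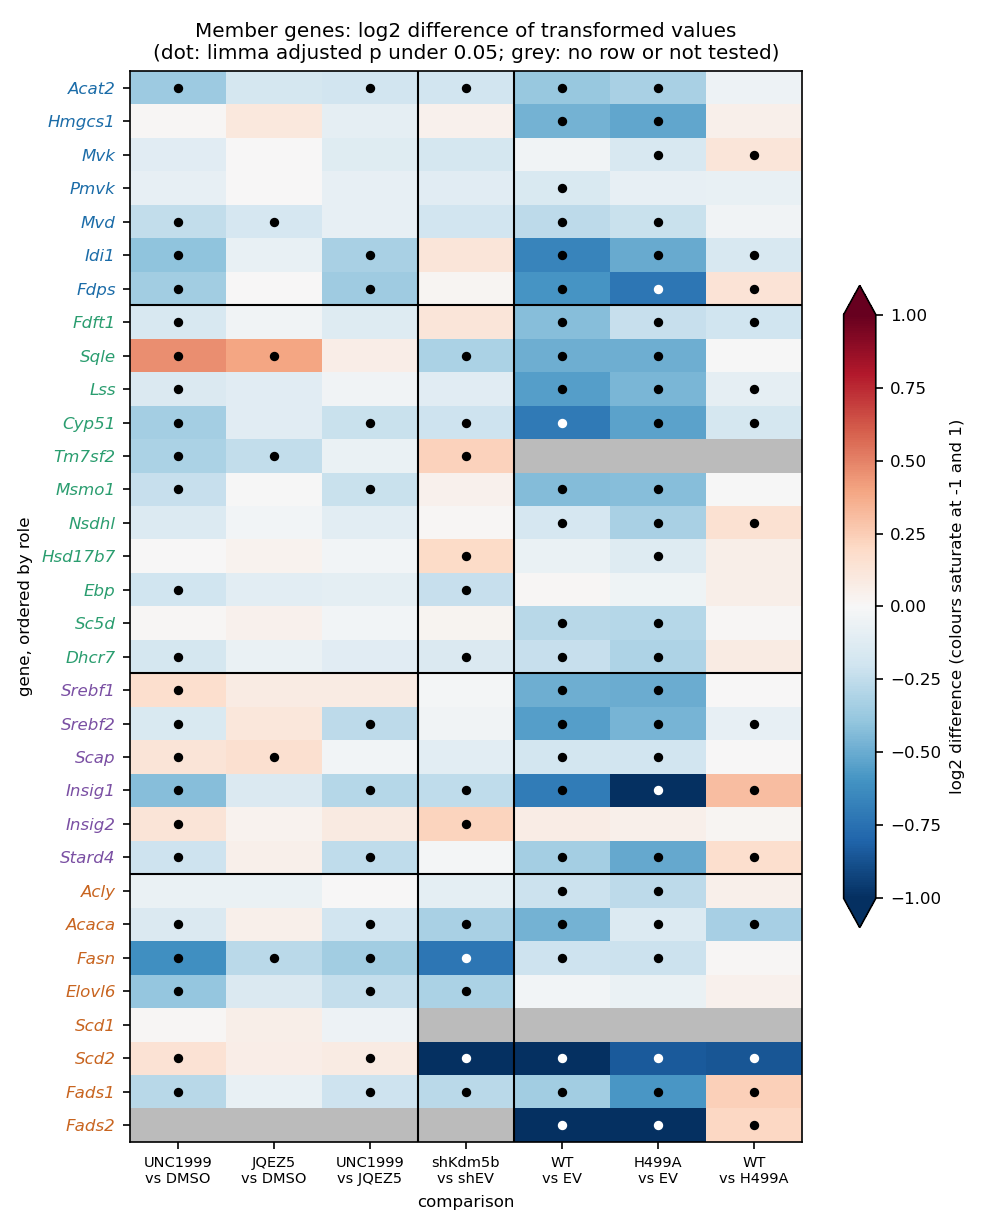
Log2 difference on the deposited scale for each of the 32 genes (rows, grouped and coloured by role) in 7 comparisons (columns, grouped by table), with dots where limma called the gene. The scale understates changes to a degree that differs between tables, so depth of colour is not comparable across them. The overexpression columns against EV are blue in nearly every row, with 25 and 26 genes called lower; the JQEZ5 column holds 5 dots; Sqle is red in the UNC1999 and JQEZ5 columns and blue against shEV and EV.

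Most of the sterol and fatty acid genes fell with UNC1999 and a few rose. Of 31 genes tested, 18 were called lower and 5 higher than with DMSO, and 8 were not called. Over all 10694 genes tested, 24% were called lower and 23.9% higher. The median log2 difference of the 31 genes was -0.15, against -0.01 for all genes tested. Without the first DMSO library 3 genes were called higher. On the log2 scale Fasn fell most, and Sqle, the squalene epoxidase that makes the substrate of sterol ring closure, rose most.

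Among the 7 genes of the early mevalonate steps, 4 fell with UNC1999 (Acat2, Mvd, Idi1 and Fdps) and none rose. Idi1, which isomerises isopentenyl diphosphate, counted 653, 675 and 588 in DMSO and 435, 439 and 430 with UNC1999, so every treated library lay below every control library. Its log2 difference was -0.40 ± 0.05 (SE; limma adjusted p = 1.26e-05). Fdps, the farnesyl diphosphate synthase, counted 642, 604 and 595 in DMSO and 420, 447 and 451 with UNC1999 (log2 difference -0.35 ± 0.04, limma adjusted p = 6.34e-06). The groups did not overlap for this gene either. Acat2, the cytosolic acetoacetyl-CoA thiolase, counted 262, 310 and 308 in DMSO and 181, 175 and 211 with UNC1999 (log2 difference -0.37 ± 0.07, limma adjusted p = 0.000269). Hmgcs1, the synthase that commits carbon to the pathway, was not called: its counts of 1670, 1577 and 1591 overlapped with 1598, 1639 and 1646, and the 95% interval of the log2 difference ran from -0.07 to 0.10.

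From squalene to cholesterol, 7 of 11 genes fell with UNC1999 (Fdft1, Lss, Cyp51, Tm7sf2, Msmo1, Ebp and Dhcr7), 1 rose and 3 were not called. The riser was Sqle, which counted 553, 523 and 542 in DMSO and 808, 823 and 826 with UNC1999. All treated libraries were above all controls, at a ratio of means of 1.52 (log2 difference 0.46 ± 0.04, limma adjusted p = 1.5e-07). Cyp51, the lanosterol demethylase that acts later in the same pathway, moved the other way, from 318, 322 and 305 to 203, 211 and 222 (log2 difference -0.34 ± 0.05, limma adjusted p = 2.9e-05). The genes on either side of Sqle moved less: Fdft1, the squalene synthase, had a ratio of 0.850 and Lss, the oxidosqualene cyclase, of 0.847. Each lost its call in 3 of the 6 fits that left out a library.

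The control genes divided into 3 higher and 3 lower. Srebf1 rose from 1112, 1100 and 1162 in DMSO to 1356, 1328 and 1183 with UNC1999 (log2 difference 0.17 ± 0.04, limma adjusted p = 0.00572), without overlap. Srebf2 fell from 1946, 1930 and 1880 to 1822, 1741 and 1563 (log2 difference -0.15 ± 0.04, limma adjusted p = 0.0106), again without overlap. The genes of the 2 SREBP factors thus moved in opposite directions, at ratios of 1.15 and 0.891. Insig1 fell from 479, 462 and 476 to 322, 337 and 253 (log2 difference -0.43 ± 0.06, limma adjusted p = 2.1e-05), and the third treated library was the lowest. Insig2 rose from 853, 857 and 906 to 976, 939 and 1003 (log2 difference 0.13 ± 0.04, limma adjusted p = 0.0159). Its call was lost in 2 of 6 fits without 1 library. Scap rose from 455, 523 and 488 to 525, 547 and 590 (log2 difference 0.13 ± 0.05, limma adjusted p = 0.0351), the highest DMSO library nearly reached the lowest treated one, and the call was lost in 4 of 6 fits without 1 library. Stard4, a carrier of sterol between membranes, fell at a ratio of 0.819.

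Of the 7 fatty acid genes tested, 4 fell with UNC1999 (Acaca, Fasn, Elovl6 and Fads1) and Scd2 rose. Fasn counted 1995, 2088 and 1948 in DMSO and 1307, 1252 and 1158 with UNC1999, a ratio of 0.616 (log2 difference -0.61 ± 0.04, limma adjusted p = 8.95e-09). The lowest control library exceeded the highest treated one by a wide margin. Elovl6, which lengthens saturated chains, counted 194, 175 and 217 in DMSO and 94.6, 112 and 135 with UNC1999 (log2 difference -0.38 ± 0.06, limma adjusted p = 0.00015). Scd2 moved up from 7980, 7908 and 7695 to 8566, 8756 and 8841, a ratio of 1.11 with no overlap (log2 difference 0.15 ± 0.03, limma adjusted p = 0.000313). Scd1 was not called: it counted 128, 126 and 127 in DMSO and 149, 166 and 82.2 with UNC1999, where the third treated library fell below all controls and the other two stood above them.

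Cell state markers moved in the same libraries. The 12 monocyte and macrophage markers summed to 8156 to 8218 CPM (counts per 1000000 reads) in DMSO and to 21132 to 21764 with UNC1999, and 11 of 12 were called higher. Gpnmb alone rose from a mean of 5222 ± 69.7 (SD, n = 3) to 69018 ± 1189 normalised counts. The 10 proliferation markers summed to 2346 to 2392 CPM in DMSO and 1616 to 1634 with UNC1999, with all 10 called lower. Their part in the changes of the sterol and fatty acid genes was not tested.

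JQEZ5 at the same labelled dose and time changed few of these genes. Of 31 genes tested, 2 were called higher (Sqle and Scap) and 3 lower (Mvd, Tm7sf2 and Fasn) than with DMSO. Over all genes tested, 13.1% were called higher and 10.5% lower, and the median log2 difference of the 31 genes was -0.00, against 0.01 for all genes. Neither share of these genes exceeded that of the table. The UNC1999 and JQEZ5 comparisons use the same DMSO libraries.

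Sqle counted 736, 776 and 806 with JQEZ5, all above the DMSO libraries of 523 to 553 (ratio 1.43, log2 difference 0.39 ± 0.04, limma adjusted p = 2.9e-06). Among the 31 genes it had the lowest adjusted p with JQEZ5. Fasn counted 1694, 1582 and 1614, all below DMSO (ratio 0.811, log2 difference -0.27 ± 0.04, limma adjusted p = 0.000216). Tm7sf2, a sterol reductase, counted 118, 125 and 119 in DMSO and 79.5, 75.2 and 86.4 with JQEZ5 (log2 difference -0.24 ± 0.07, limma adjusted p = 0.0184). Mvd, which decarboxylates mevalonate diphosphate, counted 322, 340 and 350 in DMSO and 284, 283 and 273 with JQEZ5 (log2 difference -0.17 ± 0.05, limma adjusted p = 0.0296). Scap counted 580, 552 and 576, above the DMSO range of 455 to 523 (log2 difference 0.16 ± 0.05, limma adjusted p = 0.0244). Calls of Mvd, Scap and Tm7sf2 did not hold in 5, 4 and 3 of the 6 fits that left out a library, and such fits called 1 to 2 genes higher and 1 to 4 lower.

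The remaining control genes were not called with JQEZ5. Srebf1 counted 1236, 1190 and 1187 and Srebf2 2172, 2033 and 2078, each above all DMSO libraries (limma adjusted p = 0.196 and 0.0778). Insig1 counted 409, 398 and 420, below all DMSO libraries (limma adjusted p = 0.0937). Insig2 counted 912, 861 and 928 and overlapped with DMSO. Scd2 counted 8297, 8315 and 8131, above all DMSO libraries (log2 difference 0.07 ± 0.03, limma adjusted p = 0.0816), and Scd1 counted 147, 135 and 136 (limma adjusted p = 0.674). The macrophage markers summed to 15003 to 15147 CPM with JQEZ5, with 10 of 12 called higher and 2 lower, and the proliferation markers to 2012 to 2079, with 7 of 10 called lower. Their part in the result was not tested.

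**Figure D3:**
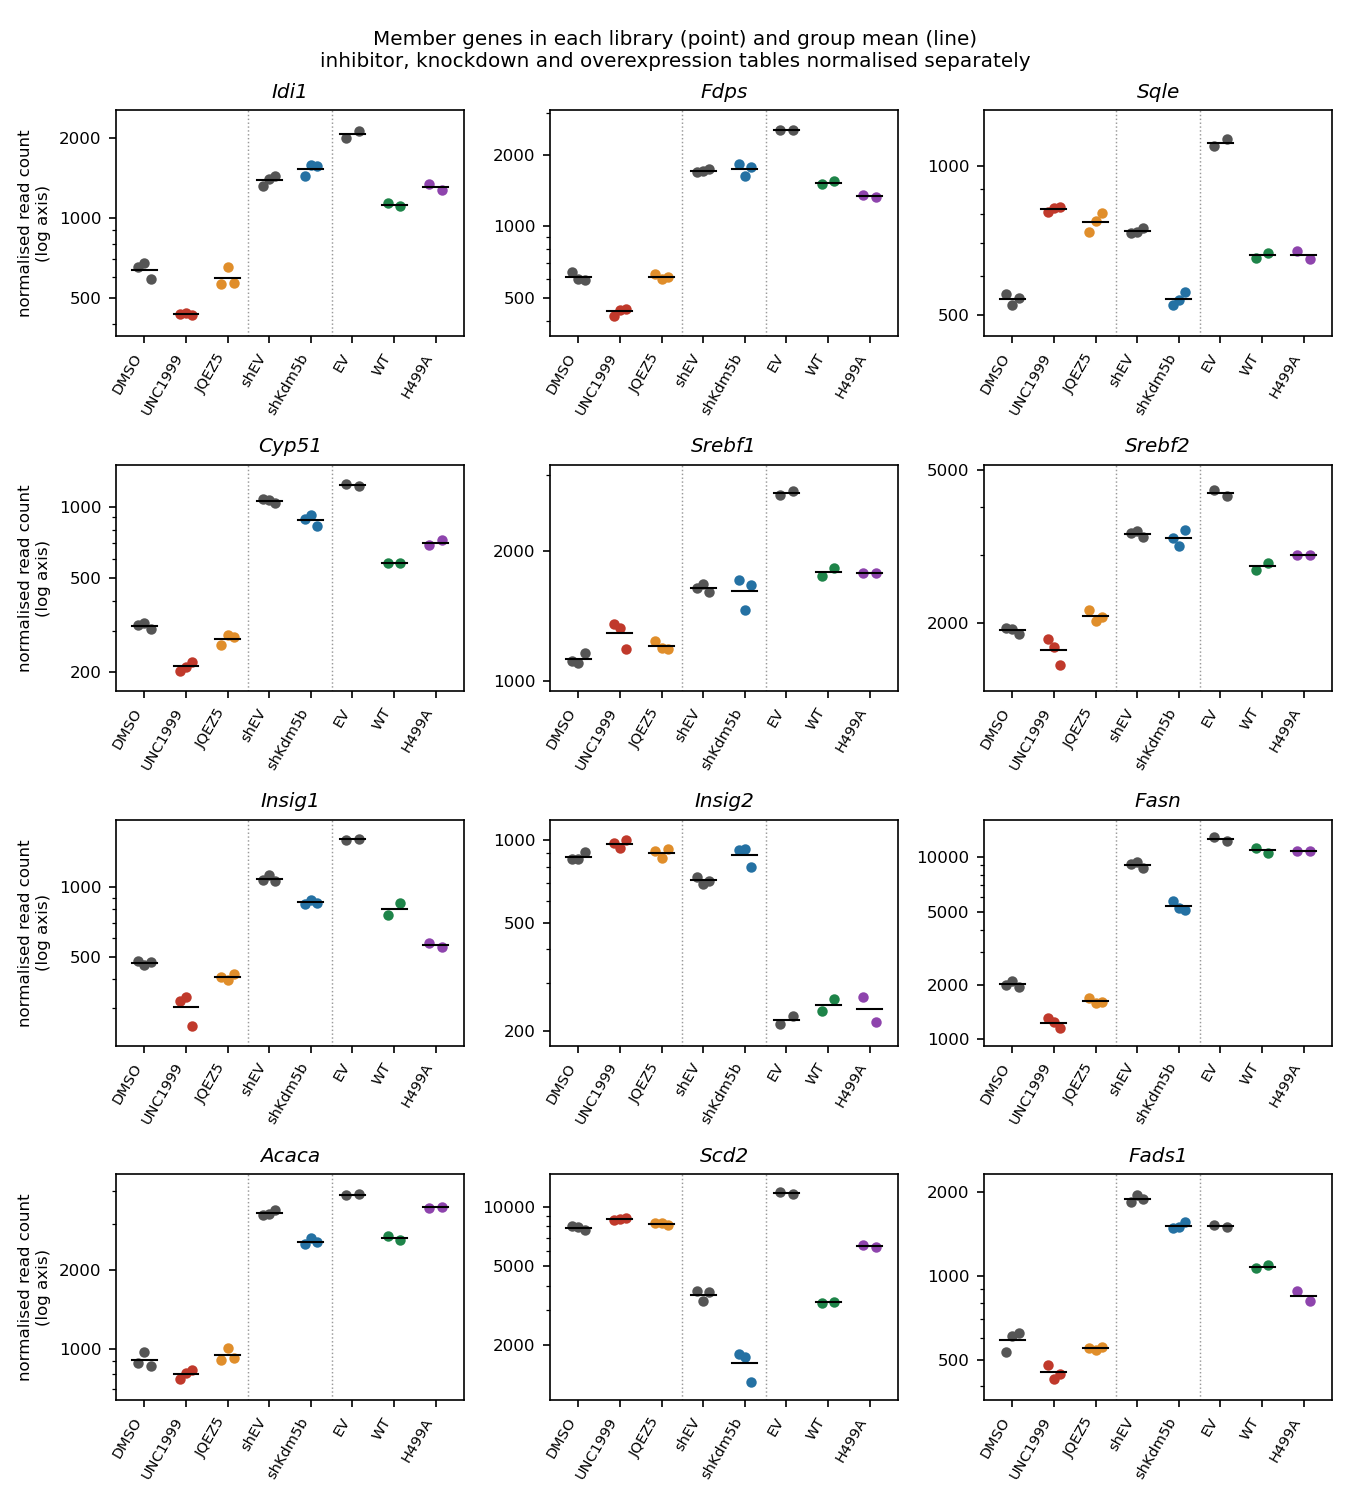
Normalised read counts of 12 of the genes in each library (points) with group means (lines) on log axes, for the inhibitor, knockdown and overexpression tables, which dotted lines separate. Sqle is higher with UNC1999 and JQEZ5 than with DMSO and lower in shKdm5b, WT and H499A than in their controls, while Fasn is lower than its control in each of these 5 groups.

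The inhibitors were compared directly at 3 µM and 4 days. With UNC1999, 12 of 31 genes were called lower than with JQEZ5 (Acat2, Idi1, Fdps, Cyp51, Msmo1, Srebf2, Insig1, Stard4, Acaca, Fasn, Elovl6 and Fads1), and Scd2 was the sole gene called higher. Over all genes tested, 17.7% were called lower and 18.7% higher. The median log2 difference was -0.11, against -0.00 for all genes. By role, 4 of 7 fatty acid genes, 3 of 6 control genes and 3 of 7 early mevalonate genes were called lower, and 2 of 11 genes between squalene and cholesterol.

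Fdps counted 632, 601 and 614 with JQEZ5, within the DMSO range, and 420, 447 and 451 with UNC1999 (log2 difference -0.35 ± 0.04, limma adjusted p = 1.31e-05). Fasn showed a difference of -0.34 ± 0.04 on the log2 scale (limma adjusted p = 1.5e-05), with JQEZ5 between DMSO and UNC1999. Idi1 counted 564, 656 and 568 with JQEZ5 against 430 to 439 with UNC1999 (log2 difference -0.33 ± 0.05, limma adjusted p = 0.000189). For each of these genes the libraries of the 2 inhibitors did not overlap. Srebf2, which tended upward with JQEZ5 and fell with UNC1999, differed by -0.26 ± 0.04 (limma adjusted p = 0.00026). Insig1 differed by -0.28 ± 0.06 (limma adjusted p = 0.00143), Stard4 by -0.25 ± 0.05 (limma adjusted p = 0.00134), Cyp51 by -0.22 ± 0.05 (limma adjusted p = 0.00192) and Msmo1, a sterol methyl oxidase, by -0.23 ± 0.05 (limma adjusted p = 0.00403).

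Stard4 counted 618, 656 and 628 with JQEZ5 and 505, 493 and 498 with UNC1999, and Msmo1 347, 396 and 396 against 283, 317 and 293, so neither gene overlapped between inhibitors. Acat2 was called (limma adjusted p = 0.032) although its libraries overlapped, since the JQEZ5 library at 205 lay below the UNC1999 library at 211, and the call was lost in 4 of 6 fits without 1 library. Sqle was not called between the inhibitors: the log2 difference was 0.07, with a 95% interval from -0.02 to 0.15. Srebf1 gave 0.08 (95% interval -0.01 to 0.18) and Scap -0.03 (-0.13 to 0.07). For Scd2 the difference was 0.08 ± 0.03 (limma adjusted p = 0.0309), and this call was lost in 7 of 14 other fits, among them quantile normalisation and the fit of these 2 groups alone.

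**Figure D4:**
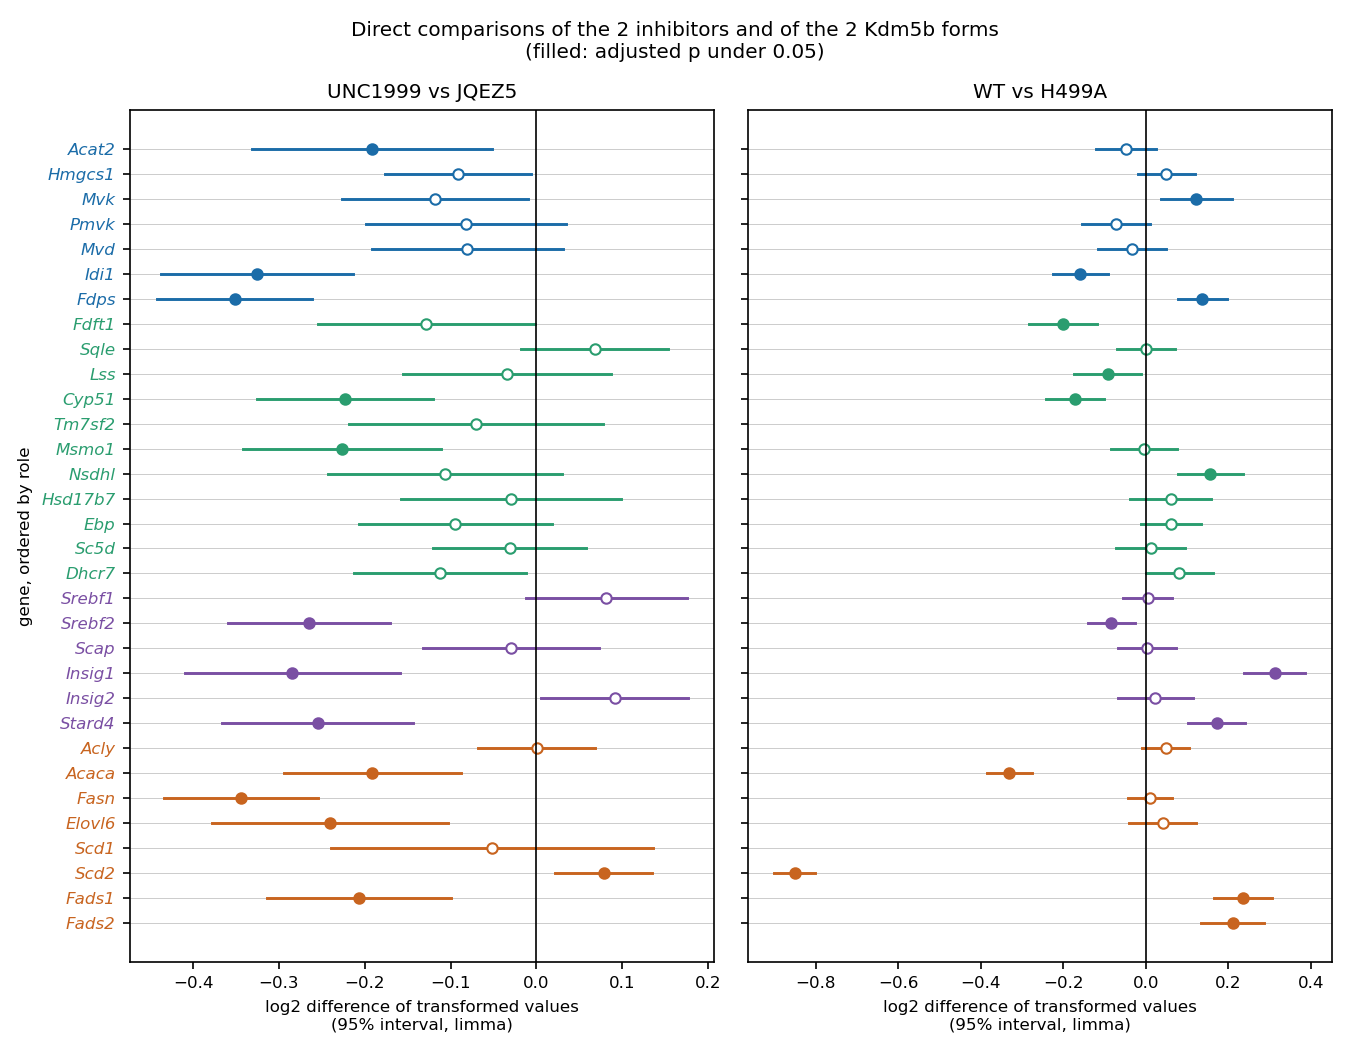
Log2 difference (point) and 95% interval (bar) of each gene between UNC1999 and JQEZ5 (left) and between WT and H499A Kdm5b (right), filled where limma called the gene. On the left 12 filled points lie below 0 and only Scd2 above; on the right 7 lie on each side, with Scd2 at -0.85 and Insig1 at 0.31.

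In NUP98-NSD1 cells with the Kdm5b hairpin, most fatty acid genes fell. Of 30 genes tested, 11 were called lower and 3 higher than with shEV, and 16 were not called. Over all 10810 genes tested, 17.4% were called lower and 15% higher, and the median log2 difference of the 30 genes was -0.11, against -0.01. All but 1 of the 6 fatty acid genes tested fell (Acaca, Fasn, Elovl6, Scd2 and Fads1), while Acly was not called (ratio 0.932, limma adjusted p = 0.128). Without the first shKdm5b library, which stood apart, 16 genes were called lower and 5 higher. Without the first shEV library 7 were lower, without shEV library 2 or 3, 0 were higher, and without the third shKdm5b library 1 was higher.

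Scd2 fell furthest, from 3737, 3340 and 3707 in shEV to 1800, 1741 and 1296 in shKdm5b, a ratio of 0.449 (log2 difference -1.03 ± 0.10, limma adjusted p = 0.000128). The third shKdm5b library was the lowest, and no shKdm5b library came near a control. Scd1 counted 49.5, 49.1 and 54.8 in shEV and 27.1, 26.7 and 15.0 in shKdm5b, too few to enter the test. From 11 to 27 reads stood behind each shKdm5b value. Fasn fell from 9166, 9343 and 8701 to 5753, 5257 and 5111, a ratio of 0.592 (log2 difference -0.72 ± 0.05, limma adjusted p = 3.27e-05). Acaca, the acetyl-CoA carboxylase that supplies Fasn, fell from 3248, 3267 and 3385 to 2508, 2646 and 2561 (log2 difference -0.32 ± 0.04, limma adjusted p = 0.000539). The groups were apart for each of these genes.

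Fads1, a front-end desaturase of polyunsaturated chains, went from 1843, 1954 and 1891 to 1484, 1495 and 1567 (log2 difference -0.27 ± 0.04, limma adjusted p = 0.00157), and Elovl6 from 297, 324 and 319 to 202, 230 and 182 (log2 difference -0.32 ± 0.05, limma adjusted p = 0.00231). Summed over the 7 fatty acid genes with a row, the libraries held 819 to 841 CPM in shEV and 580 to 590 in shKdm5b. The 7 early mevalonate genes summed to 270 to 274 in shEV and 266 to 271 in shKdm5b, so these ranges overlapped. These sums are given without a test and weigh abundant genes most.

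Among sterol genes the calls went both ways. Of the early steps only Acat2 fell (ratio 0.838, limma adjusted p = 0.0209). Between squalene and cholesterol, Sqle, Cyp51, Ebp and Dhcr7 fell, and Tm7sf2 and Hsd17b7 rose. Sqle fell from 732, 736 and 751 to 524, 536 and 557, a ratio of 0.729 without overlap (log2 difference -0.32 ± 0.04, limma adjusted p = 0.000632). Cyp51 fell from 1081, 1061 and 1035 to 890, 918 and 825 (log2 difference -0.21 ± 0.05, limma adjusted p = 0.00883). Ebp, the sterol isomerase, fell from 1246, 1193 and 1166 to 1102, 932 and 911 (log2 difference -0.23 ± 0.06, limma adjusted p = 0.0189), and its call was lost in 5 of 6 fits without 1 library. Hsd17b7, a sterol ketoreductase, rose at a ratio of 1.19 and lost its call equally often. So did Dhcr7, a sterol reductase, whose call was lost in 8 of the 13 other fits in all. Tm7sf2 and Acat2 each lost theirs in 3 of 6 fits without 1 library.

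In the control group of genes, Insig1 fell from 1068, 1124 and 1056 to 842, 881 and 851 (log2 difference -0.26 ± 0.04, limma adjusted p = 0.00211). Insig2 rose from 735, 694 and 712 to 924, 928 and 797 (log2 difference 0.22 ± 0.05, limma adjusted p = 0.0135), so the paralogues moved apart as they did with UNC1999. Srebf1 counted 1641, 1677 and 1602 in shEV and 1713, 1462 and 1671 in shKdm5b (95% interval of the log2 difference -0.15 to 0.10). Srebf2 counted 3428, 3475 and 3356 against 3337, 3177 and 3502 (-0.13 to 0.07). Both overlapped and neither was called. Scap counted 1990, 2068 and 1971 against 1863, 1792 and 1876, apart but not called (limma adjusted p = 0.0718). The macrophage markers summed to 2549 to 2590 CPM in shEV and 1997 to 2293 in shKdm5b, with 9 of 12 called lower and 2 higher, and the proliferation markers to 4088 to 4136 and 4001 to 4180. Their part in the result was not tested.

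Wild-type Kdm5b in MLL-AF9 cells was accompanied by lower values in every branch of the pathway. Of 30 genes tested, 25 were called lower than with EV, none higher and 5 not (Mvk, Hsd17b7, Ebp, Insig2 and Elovl6). Over all 9458 genes tested, 32.4% were called lower and 29.8% higher, and the median log2 difference was -0.36, against -0.01. The calls covered 6 of 7 early mevalonate genes, 8 of 10 genes between squalene and cholesterol, 5 of 6 control genes and 6 of 7 fatty acid genes. Voom on recovered counts, the other test run, called 25 lower and none higher as well, and no unadjusted p of a higher gene was under 0.05.

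Scd2 showed the lowest adjusted p of the set, at 11948 and 11707 in EV and 3268 and 3296 in WT (ratio 0.277, log2 difference -1.69 ± 0.02, limma adjusted p = 1.42e-26). Fads2, which desaturates linoleic and linolenic acid, counted 1209 and 1236 in EV and 292 and 303 in WT (ratio 0.243, log2 difference -1.19 ± 0.04, limma adjusted p = 9.18e-20). These desaturases stood well below control in both libraries. Scd1 counted 86.8 and 78.8 in EV and 22.1 and 39.3 in WT, and was not tested because of its low counts.

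Cyp51 fell from 1244 and 1220 to 578 and 577 (log2 difference -0.71 ± 0.03, limma adjusted p = 9.67e-16), Idi1 from 1996 and 2137 to 1134 and 1106 (log2 difference -0.66 ± 0.03, limma adjusted p = 1.52e-15) and Fdps from 2543 and 2547 to 1505 and 1543 (log2 difference -0.59 ± 0.03, limma adjusted p = 1.7e-15). Lss fell from 694 and 633 to 313 and 335 (ratio 0.488, limma adjusted p = 3.1e-12), Acaca from 3876 and 3895 to 2701 and 2608 (ratio 0.683, limma adjusted p = 2e-14) and Sqle from 1097 and 1134 to 652 and 669 (ratio 0.592, limma adjusted p = 2.4e-12). All of these were apart from EV in both libraries. Fasn fell here at a ratio of 0.862 (limma adjusted p = 1.83e-07).

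Most control genes fell as well. Srebf1 counted 2692 and 2748 in EV and 1750 and 1821 in WT (log2 difference -0.49 ± 0.03, limma adjusted p = 5.49e-14). Srebf2 counted 4441 and 4277 in EV and 2751 and 2869 in WT (log2 difference -0.55 ± 0.03, limma adjusted p = 1.89e-15). Insig1 counted 1586 and 1613 in EV and 758 and 851 in WT (log2 difference -0.70 ± 0.04, limma adjusted p = 5.01e-15). Scap moved less, from 1613 and 1724 to 1413 and 1397 (ratio 0.842, limma adjusted p = 3.64e-05). Insig2, at 212 and 228 in EV and 236 and 261 in WT, was the control gene that was not called (limma adjusted p = 0.157).

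The H499A form gave a like count against the same EV libraries: 26 of 30 genes were called lower, none higher, and Pmvk, Ebp, Insig2 and Elovl6 were not called. Over all genes tested, 26.9% were called lower and 22.7% higher, and the median log2 difference was -0.32, against -0.01. Voom called 26 lower and none higher too. Because both forms are set against the same 2 EV libraries, their changes from EV are not independent.

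With H499A, Fads2 counted 204 and 216 (ratio to EV 0.172, log2 difference -1.40 ± 0.04, limma adjusted p = 5.82e-21) and Scd2 6421 and 6305 (ratio 0.538, log2 difference -0.84 ± 0.02, limma adjusted p = 2.39e-20). Insig1 counted 573 and 552 (ratio 0.352, log2 difference -1.01 ± 0.04, limma adjusted p = 3.23e-18). Fdps counted 1354 and 1330 (ratio 0.527, limma adjusted p = 3.17e-17), and Fads1 885 and 812 against 1521 and 1494 in EV (ratio 0.563, limma adjusted p = 7.62e-14). All were below both EV libraries. Cyp51 counted 691 and 721 (ratio 0.573, limma adjusted p = 5.73e-13), Hmgcs1 1143 and 1087 against 1883 and 1750 in EV (ratio 0.614, limma adjusted p = 7.08e-13) and Idi1 1338 and 1277 (ratio 0.633, limma adjusted p = 8.17e-13). Sqle counted 673 and 648 (ratio 0.592), Srebf1 1781 and 1776 (ratio 0.654), Srebf2 3010 and 3009 (ratio 0.690) and Scap 1464 and 1342 (ratio 0.841), each below both EV libraries and called. Insig2 counted 266 and 215 and overlapped with EV, and Scd1 counted 39.9 and 38.6.

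The direct comparison of WT with H499A split the pathway evenly. Of 30 genes, 7 were higher with WT (Mvk, Fdps, Nsdhl, Insig1, Stard4, Fads1 and Fads2), 7 lower (Idi1, Fdft1, Lss, Cyp51, Srebf2, Acaca and Scd2) and 16 not called. Over all genes tested, 28.2% were called higher and 26.3% lower, and both medians were 0.01. The share of these genes called was near that of the table in each direction.

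Scd2 differed most: 3268 and 3296 with WT lay far below 6421 and 6305 with H499A (ratio 0.516, log2 difference -0.85 ± 0.02, limma adjusted p = 2.24e-20). Acaca was lower with WT as well, at 2701 and 2608 against 3464 and 3488 (ratio 0.764, log2 difference -0.33 ± 0.03, limma adjusted p = 4.87e-11). In contrast, the polyunsaturated desaturases were lower with H499A: Fads1 counted 1069 and 1092 with WT against 885 and 812 (log2 difference 0.24 ± 0.03, limma adjusted p = 1.68e-06), and Fads2 292 and 303 against 204 and 216 (log2 difference 0.21 ± 0.04, limma adjusted p = 3.17e-05). Insig1 was higher with WT, at 758 and 851 against 573 and 552 (ratio 1.43, log2 difference 0.31 ± 0.04, limma adjusted p = 5.98e-08), and so was Stard4, at 765 and 773 against 633 and 633 (log2 difference 0.17 ± 0.03, limma adjusted p = 0.000116). None of these overlapped between the forms.

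Lower with WT were also Cyp51 (ratio 0.818, limma adjusted p = 0.000128) and Fdft1, at 296 and 278 against 405 and 368 (ratio 0.743, limma adjusted p = 0.000133). Srebf2 was lower by a smaller step (ratio 0.934, limma adjusted p = 0.0115), and this call was lost in 3 of 4 fits without 1 library. The calls of Lss and Mvk were lost in 3 and 2 of those 4 fits. Sqle, Srebf1 and Scap were not called, with 95% intervals of the log2 difference of -0.07 to 0.07, -0.05 to 0.06 and -0.07 to 0.07. Fasn gave -0.04 to 0.06.

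Marker levels in these libraries moved too. The 11 macrophage markers with a row summed to 1147 to 1192 CPM in EV, 3029 to 3195 in WT and 1981 to 1989 in H499A. Of the 8 macrophage markers tested, 7 were called higher and 1 lower (Fcgr1) with WT, and 7 higher and none lower with H499A, against EV. The 10 proliferation markers summed to 4698 to 4729, 4163 to 4186 and 4494 to 4502. With WT 8 of them were called lower and 1 higher (Top2a), and with H499A 5 lower and 2 higher (Ccnb1 and Cdk1). The 11 genes between squalene and cholesterol summed to 375 to 382 CPM in EV, 253 to 256 in WT and 255 to 256 in H499A. The part of the markers in these changes was not tested.

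Across the 5 comparisons with a control, Fasn was called lower in each, at ratios of 0.616 (UNC1999), 0.811 (JQEZ5), 0.592 (shKdm5b), 0.862 (WT) and 0.856 (H499A). Sqle was called in each as well but changed direction, with ratios of 1.52, 1.43, 0.729, 0.592 and 0.592 in the same order. Insig1 was called lower in 4 of the 5, as were Acat2, Mvd, Cyp51, Dhcr7, Acaca and Fads1. Insig2 was called lower in none and higher in 2 (UNC1999 and shKdm5b). Scd2 gave 1.11, 1.05 (not called), 0.449, 0.277 and 0.538. The comparisons with DMSO share their control libraries, as do those with EV. Over all genes tested, 24%, 10.5%, 17.4%, 32.4% and 26.9% were called lower, in the same order. The shares called higher were 23.9%, 13.1%, 15%, 29.8% and 22.7%. How many of all genes were called in as many comparisons was not counted.

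Other genes of the pathway were read from lists, and each count is set beside the share of all genes called. Of the genes that process SREBP or sense sterol (13 tested), 6 rose and 1 fell with UNC1999 (all genes 23.9% and 24%), 4 rose and 1 fell with JQEZ5 (13.1% and 10.5%) and 4 rose and 3 fell with shKdm5b (15% and 17.4%). With WT 6 rose and none fell (all genes 29.8% and 32.4%), and with H499A 2 rose and 1 fell (22.7% and 26.9%), the latter below the share of the table in both directions. Mbtps1, the site-1 protease that cuts SREBP, rose with UNC1999 (1.20-fold, limma adjusted p = 0.000113), JQEZ5 (1.101-fold, 0.0284), shKdm5b (1.24-fold, 0.00106) and WT (1.09-fold, 0.00383). Erlin1, an endoplasmic reticulum protein of sterol-dependent degradation, fell with shKdm5b from a mean of 2699 ± 51.2 to 1385 ± 11.6 (SD, n = 3; ratio 0.513, limma adjusted p = 2.41e-06), whereas it rose with UNC1999 (ratio 1.22, limma adjusted p = 0.000278).

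Of other lipid synthesis genes, 4 of 20 rose and 5 fell with UNC1999, close to the 23.9% and 24% of all genes. With JQEZ5, 5 of 20 rose and 2 fell, against 13.1% and 10.5% of all genes. Of 19 tested in the other tables, 1 rose and 8 fell with shKdm5b (all genes 15% and 17.4%), 1 rose and 10 fell with WT (29.8% and 32.4%), and 1 rose and 9 fell with H499A (22.7% and 26.9%). Me1, the cytosolic malic enzyme that yields NADPH, rose from 107 ± 18.6 in DMSO to 310 ± 25.6 with UNC1999 (SD, n = 3; limma adjusted p = 7.79e-08) and fell from 162 ± 15.5 in shEV to 82.4 ± 15.5 in shKdm5b (limma adjusted p = 0.00186). Acss2, the cytosolic acetyl-CoA synthetase, fell from 243 ± 16.2 in EV to 95.5 ± 1.63 in WT (SD, n = 2; limma adjusted p = 3.07e-10), and Tmem97, a sterol-responsive membrane protein, fell with UNC1999 (ratio 0.837), WT (0.787) and H499A (0.885).

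Of 8 genes of the oxysterol and LXR response, 6 rose and none fell with UNC1999 (all genes 23.9% and 24%), and 6 rose and 1 fell with JQEZ5 (13.1% and 10.5%). Abca1, the exporter of cholesterol to apolipoprotein A-I, rose from 158 ± 20.6 in DMSO to 971 ± 60.6 with UNC1999 and 293 ± 10.9 with JQEZ5 (SD, n = 3; limma adjusted p = 6.85e-13 and 6.71e-06). Abcg1, its partner in export, rose 3.64-fold and 2.19-fold. In shKdm5b, Abca1 fell to 137 ± 41.2 from 331 ± 21.8 (limma adjusted p = 0.000849), and of 7 genes tested 2 rose and 2 fell (all genes 15% and 17.4%). Of 6 tested in MLL-AF9 cells, 3 rose and 1 fell with WT (all genes 29.8% and 32.4%) and 3 rose and 3 fell with H499A (22.7% and 26.9%). Soat1, which esterifies cholesterol, rose there from 766 ± 63.6 in EV to 1810 ± 16.4 in WT and 1319 ± 61.9 in H499A (SD, n = 2; limma adjusted p = 2.55e-17 and 1.55e-12). Macrophages also express Abca1, Abcg1 and Soat1, and the marker sums above moved in the same libraries. Any part of cell state in the changes of these genes was not tested.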

How the data were processed

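RNA was sequenced from libraries made from 1 µg of total RNA with either of the kits named in the labels; which kit made which library was not given in the sources used here. Per the submitters' processing notes, the authors used STAR 2.4.2, Salmon 0.1.19 and DESeq2 1.38.2 with build mm10 (GRCm38.p4). The deposited values of each table are log2 values after a variance-stabilising transformation. Its closed form was undone with the lowest value of each table; 100% of values up to 500 reads came out as whole reads (tolerance 0.05), which gave counts and depth per library. Limma 3.58.1 (R 4.3.3) was fitted to the deposited log2 values, with 1 mean per group, a mean-variance trend and Benjamini-Hochberg adjustment over all genes kept by a filter on low values (10694, 10810 and 9458 genes). The filter asked for 1 log2 unit over the table minimum in a number of libraries equal to the size of the smallest group, which is 59.0, 86.6 and 145 normalised counts. Scd1 failed it in 2 tables and Tm7sf2 in the overexpression table. Exon lengths were from GENCODE M21. Values per library were printed for a set of control genes, Sqle, Scd1, Scd2 and up to 6 further genes of lowest adjusted p per comparison. Members and lists were chosen with earlier results of these data known. Alternatives were filters, scalings, trend, a replicate block, 2-group fits, voom and leaving out each library.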

Additional observations from a re-analysis of the deposited data

How the results depend on the processing

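No called gene changed direction under any alternative run, and both scalings moved the median of all genes by less than 0.02 on the log2 scale. UNC1999 against DMSO gave 3 to 5 genes called higher and 16 to 18 lower when 1 library was left out, with 3 without DMSO library 1. JQEZ5 against DMSO gave 1 to 2 higher and 1 to 4 lower, and 5 lower when only those 2 groups were fitted; 1 was higher without DMSO library 1 or 3 or JQEZ5 library 3, and 1 lower without DMSO library 2 or 3 or JQEZ5 library 2. UNC1999 against JQEZ5 gave 0 to 1 higher and 11 to 12 lower (0 higher without UNC1999 library 2 or JQEZ5 library 3), and 0 higher with quantile normalisation, without the trend, with the replicate block or with only those 2 groups. shKdm5b against shEV gave 0 to 5 higher and 7 to 16 lower: 0 higher without shEV library 2 or 3, 1 without shKdm5b library 3 and 5 without shKdm5b library 1, 7 lower without shEV library 1 and 16 without shKdm5b library 1. WT against EV gave 0 higher and 25 to 26 lower, H499A against EV 0 higher and 24 to 26 lower, and WT against H499A 6 to 10 higher and 5 to 7 lower. In the UNC1999 comparison, Fdft1 and Lss each lost their calls in 3 of 6 such fits. Of the UNC1999 calls against DMSO, 2 were lost with voom and 3 with only those 2 groups fitted. Between WT and H499A, 1 call was lost with voom. The causes were not tested. Deviations of libraries with the same number correlated from -0.15 to 0.22, and the numbers were not taken to pair the libraries. Deviations within a group cancel out, and with 2 libraries they mirror each other, so this range cannot exclude pairing. With the replicate block, 12 genes were lower and 3 higher in shKdm5b, and 18 lower with UNC1999. Low counts limit Scd1 and Tm7sf2, and Kdm5b in the knockdown table.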
